A study of Mus musculus with 6 samples.

Results

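Macrophages and monocytes are myeloid phagocytes, and the 43 genes described here are a hand-made list of transcripts that mark them, grouped into red pulp and resident macrophage genes, monocyte genes and general myeloid genes. They were picked by symbol, and all 43 were found among the 23282 genes that each library lists. RNA had been sequenced from CD4 T cells of C57BL/6 mice, with 3 WT and 3 AMPK KO samples, to learn how loss of the energy sensor AMPK changes these cells. Both groups carry floxed alleles of Prkaa1, the gene of the catalytic subunit AMPKα1: WT mice are Prkaa1 fl/fl without Cre (CD4Cre-neg), and AMPK KO mice are Prkaa1 fl/fl with CD4Cre, a Cre driven from Cd4 regulatory sequences that removes the gene in the T cell lineage. The study's methods give female mice aged 6 to 8 weeks unless stated otherwise. For T cells used in vitro the study names spleen and lymph nodes, magnetic microbeads and a purity check by flow cytometry. Its methods name microbeads or a cell sorter for immune cells and do not say which was used for these samples. The cells were rested for 1 h and stimulated with anti-CD3 and anti-CD28, each at 2 µg/mL, for 24 h per the labels or 6 h per the study's methods. The study describes the 3 samples of each group as biologically independent, while the labels do not say whether each came from a mouse of its own, and the p-values measure the spread between these samples.

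The red pulp of the spleen holds resident macrophages that take up aged red blood cells and recycle their iron, and their development depends on the transcription factor SPIC. Monocytes are their circulating relatives, which carry receptors for bacterial products and large amounts of lysozyme, while tissue macrophages are a main source of C1q, the first component of the classical complement pathway. The general genes include Fc receptors, their signalling adaptors and the receptor for CSF1, the growth factor on which macrophages depend. None of these genes is typical of a CD4 T cell, so a value for them in bulk RNA of isolated T cells sums over all cells in the sample. In such bulk samples, more cells of a type and more RNA per cell cannot be told apart.

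Depth on genes ranged from 9575096 to 10168121 reads for WT libraries and from 10515155 to 11185360 for AMPK KO libraries. Rn45s, the ribosomal RNA precursor, took 20.7% to 24.9% of each WT library and 8.48% to 10.8% of each AMPK KO library. Values are log2 of scaled RPM (a gene's reads relative to the reads of its library, times a library factor) plus 1, and since the libraries read the 3′ ends of transcripts, a gene's length does not enter. The targeted gene Prkaa1 had levels of 4.64, 5.24 and 4.86 in WT and 4.08, 4.72 and 4.67 in AMPK KO, which overlapped between the groups, with a log2 difference of -0.43 ± 0.25 (adjusted p = 0.357), and a 3′ read may lie outside the deleted exons. T cell markers were present in every library, with Cd3e at 7.38, 7.30 and 7.36 in WT and 6.62, 6.94 and 6.50 in AMPK KO and Cd4 at 6.72, 6.83 and 6.53 in WT and 6.55, 6.31 and 6.14 in AMPK KO. The CD8 T cell markers were present as well, Cd8a at 6.48, 6.71 and 6.86 in WT and 7.04, 6.95 and 7.08 in AMPK KO and Cd8b1 at 7.17, 7.61 and 7.58 in WT and 7.58, 7.98 and 7.92 in AMPK KO. Xist, made only from an inactive X chromosome, had 8 to 32 reads per WT library and 1998 to 2876 per AMPK KO library, and the Y-linked Ddx3y had 3158 to 3462 reads per WT library and 1296 to 1840 per AMPK KO library. The sex make-up of the samples therefore went with the genotype and cannot be told apart from it. Every AMPK KO library held reads of both genes, so none of them reads as cells of a single sex. Ddx3y reads were present in every library, although the study's methods give female mice unless stated otherwise. Whether samples were pooled from several mice is not in the labels and was not tested.

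Macrophage and monocyte transcripts were more abundant in the AMPK KO samples, in each of the 3 subsets. Of the 43 members, 37 had a mean log2 of at least 1 and were tested with limma. Among these, 19 were higher in AMPK KO at an adjusted p under 0.05, where 2.54% of the 11279 tested genes were called higher, and 0 were lower, where 3.1% of tested genes were called lower. No member was lower at an unadjusted p under 0.05 either, or by limma voom on the recovered reads (0 by each). In 25 of the 37 tested members every AMPK KO library lay above every WT library, as did 11.6% of all tested genes. The median log2 difference over the tested members was 1.06, beside 0.02 over all tested genes. Since a member can pass the minimum through the group in which it is high, the whole list was also examined: 40 had a higher mean in AMPK KO, 28 had groups that did not overlap, and the median difference was 1.03. With no minimum level the median over 15930 genes was 0.04, and matching shares of those genes were not computed for the counts. The exceptions in direction were Msr1, Siglec1 and Gpnmb.

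**Figure D1:**
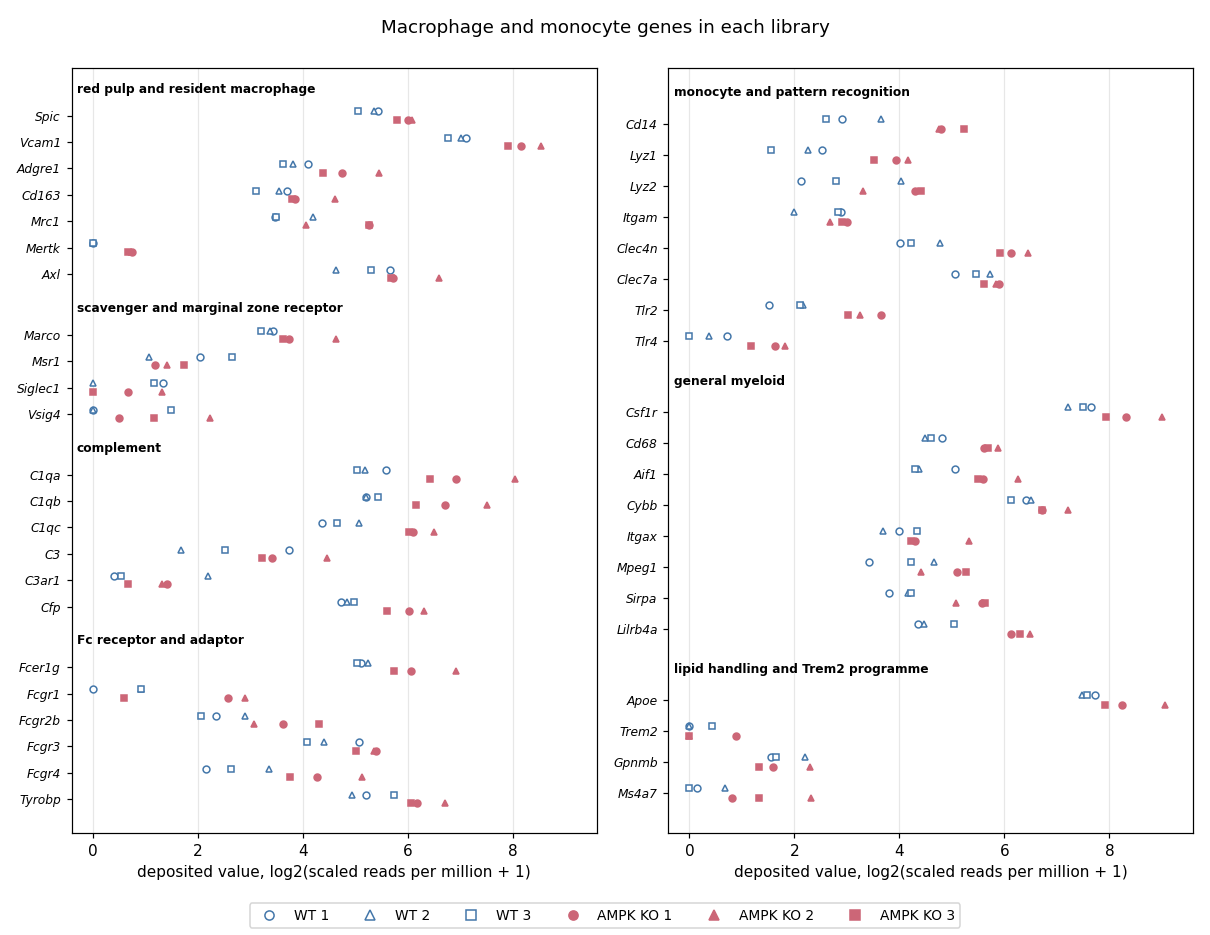
Level of each of the 43 members in each of the 6 libraries, with genes ordered by role and the x axis in log2 of scaled RPM plus 1. Each point is 1 library, with WT and AMPK KO in different colours, and for the 19 called members all 3 AMPK KO points lie to the right of all 3 WT points.

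The 6 members under the minimum, which had no test, were Mertk, Siglec1, Vsig4, Tlr4, Trem2 and Ms4a7. The other 18 tested members had no call, and 16 of them had a higher mean in AMPK KO. By subset, 2 of 6 tested red pulp members were called (Spic and Vcam1), with a median difference of 0.91. Of the 9 tested monocyte members 6 were called, with a median of 1.38, and of the 22 tested general members 11 were called, with a median of 1.04. Whether the subsets differ from each other was not tested. For each called member the exact two-sided permutation test over the 6 samples gave p = 0.1, the smallest that 3 against 3 allows, so the calls rest on limma, which shares its estimate of the spread across genes.

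**Figure D2:**
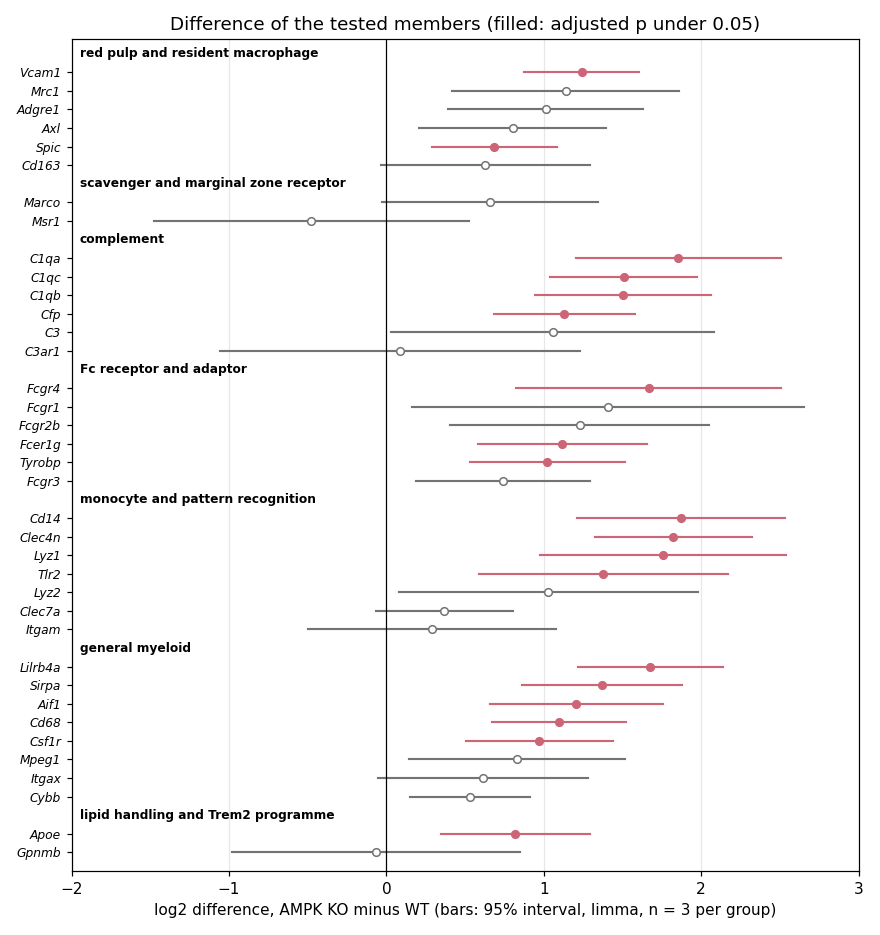
Log2 difference between AMPK KO and WT for each of the 37 tested members, with 95% confidence intervals from limma, grouped by role, where values right of 0 are higher in AMPK KO. Filled points mark the 19 members past an adjusted p of 0.05, which lie between 0.68 (Spic) and 1.87 (Cd14).

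Of 6 tested red pulp and resident macrophage genes 2 rose, Vcam1 and Spic. Vcam1, an adhesion molecule through which red pulp macrophages hold other cells, had levels of 7.11, 7.02 and 6.77 in WT and 8.16, 8.54 and 7.92 in AMPK KO. All AMPK KO libraries lay above all WT libraries, by 1.24 ± 0.17 (SE, n = 3 a group, here and below) on the log2 scale (adjusted p = 0.000794). Spic, the gene of the lineage's transcription factor (chr10:88675269-88683023, GRCm38.p6), had 5.44, 5.35 and 5.05 in WT and 6.01, 6.09 and 5.80 in AMPK KO. Its groups did not overlap either, but the difference of 0.68 ± 0.19 was smaller (adjusted p = 0.0447). The call was lost whichever single library was left out (adjusted p = 0.0506 to 0.201), with scaling to reads outside Rn45s (0.065), with no minimum level (0.0756) and with voom (0.055). Adgre1, which encodes the macrophage antigen F4/80, had 4.11, 3.82 and 3.63 in WT and 4.76, 5.45 and 4.39 in AMPK KO. These groups were apart as well, with a difference of 1.01 ± 0.29 and an adjusted p of 0.0546. The adjusted p was 0.022 without AMPK KO replicate 3 and 0.0837 to 0.202 with each of the other libraries left out in turn, with the lowest difference (0.72) without AMPK KO replicate 2.

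The remaining members of this group had no call. Cd163, the scavenger receptor for haemoglobin bound to haptoglobin, differed by 0.63 ± 0.31, and the phosphatidylserine-sensing receptor kinase Axl by 0.80 ± 0.28 (adjusted p = 0.264 and 0.108). Both had groups that did not overlap, although the margins were small, with the lowest AMPK KO library of Axl at 5.68 and the highest WT library at 5.66. Without AMPK KO replicate 2 the differences were 0.37 for Cd163 and 0.51 for Axl (adjusted p = 0.517 and 0.21), and without WT replicate 2 that of Axl was 0.52 (adjusted p = 0.259). Mrc1, the mannose receptor, had 3.47, 4.20 and 3.50 in WT and 5.26, 4.06 and 5.26 in AMPK KO. AMPK KO replicate 2 lay inside the WT range while the other two AMPK KO libraries lay above it, and the difference of 1.14 ± 0.34 (adjusted p = 0.0614) became 1.54 (adjusted p = 0.00234) without replicate 2. It passed without WT replicate 2 as well (1.38, adjusted p = 0.0372), and without the other libraries it was 0.94 to 1.02 (adjusted p = 0.17 to 0.272). Mertk, a second receptor kinase for dying cells and a defining macrophage gene, was listed at 0 in every WT library and had 7 to 8 reads in each AMPK KO library. Set against a floor of 3 reads per library it was at least 1.99-fold higher in AMPK KO, at a depth too low for the test.

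Scavenger receptors of marginal zone and sinus macrophages had 0 calls in 2 tested genes by limma and by voom, and 0 at an unadjusted p under 0.05. Marco, which binds bacteria on marginal zone macrophages, had 3.43, 3.38 and 3.21 in WT and 3.74, 4.63 and 3.62 in AMPK KO. Its groups did not overlap, but with AMPK KO replicate 2 standing well above the others the difference of 0.66 ± 0.32 had an adjusted p of 0.253, and was 0.34 (adjusted p = 0.552) without that library. Msr1, the class A scavenger receptor, was the tested member with the lowest difference, at -0.48 ± 0.47 (adjusted p = 0.6), and its groups overlapped. It ran from -0.91 without WT replicate 2 to -0.11 without WT replicate 3 (adjusted p = 0.257 and 0.935). Siglec1 and Vsig4, the sialic acid receptor CD169 and the complement receptor CRIg, had 0 to 16 and 0 to 40 reads per library and were not tested.

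Of 6 complement members 4 rose, among them all 3 chains of C1q. C1qa had 5.58, 5.19 and 5.04 in WT and 6.92, 8.04 and 6.42 in AMPK KO, C1qb had 5.21, 5.20 and 5.44 in WT and 6.70, 7.50 and 6.16 in AMPK KO, and C1qc had 4.38, 5.07 and 4.66 in WT and 6.11, 6.49 and 6.02 in AMPK KO. No AMPK KO library overlapped WT for any chain, and AMPK KO replicate 2 was the highest library for all 3. The differences were 1.85 ± 0.31 for C1qa, 1.50 ± 0.26 for C1qb and 1.51 ± 0.22 for C1qc, or 3.62, 2.83 and 2.84 times on the linear form of this scale (adjusted p = 0.00308, 0.00465 and 0.00127). A fold on the log2(value + 1) scale understates the change of low genes. The 3 genes are neighbours on the minus strand of chromosome 4 (C1qb at chr4:136880126-136886200, C1qc at chr4:136889801-136892936 and C1qa at chr4:136895916-136898844, GRCm38.p6). Cfp, the gene of properdin, which stabilises the alternative pathway convertase and is made by monocytes and neutrophils, had 4.72, 4.85 and 4.98 in WT and 6.03, 6.31 and 5.61 in AMPK KO. It rose by 1.13 ± 0.21 (adjusted p = 0.00682), with groups apart. The call of C1qb was lost without WT replicate 1 (adjusted p = 0.0562), and that of Cfp without WT replicate 1 or AMPK KO replicate 1 (adjusted p = 0.0644 and 0.0515).

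The other complement members had no call. C3, the central component of the cascade, had 3.74, 1.68 and 2.52 in WT and 3.42, 4.47 and 3.22 in AMPK KO, so that its groups overlapped and WT varied widely (difference 1.06 ± 0.48, adjusted p = 0.221). The difference was 1.60 without WT replicate 1, 0.57 without WT replicate 2 and 0.67 without AMPK KO replicate 2 (adjusted p = 0.122, 0.483 and 0.415). C3ar1, the receptor for its fragment C3a, had 3 to 36 reads per WT library and 7 to 20 per AMPK KO library, and its difference of 0.09 ± 0.54 had a 95% interval from -1.06 to 1.23.

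Myeloid promoters commonly hold sites for PU.1, the transcription factor encoded by Spi1, whose core reads GAGGAA when written along one strand and appears as the reverse complement TTCCTC when written along the other. RefSeq promoter sequences (GRCm38.p6) were matched for 31 of the 43 members, and in the 250 bases before the start this core was found in 18 of 36 member promoters (50%) and in 7639 of all 32851 promoters (23.3%). It lay before at least 1 start of 15 of the 31 matched members, beside 25.9% of all 27025 genes in the table, and of 6 of the 11 matched members that were called (Aif1, Apoe, C1qb, C1qc, Cd68 and Fcgr4). The stretches of 3 called genes and of Clec7a, which had no call, are shown as examples of where the core lies, all on the minus strand, 5′ to 3′ along the gene, with the core in capitals. They are chr4:136886201-136886257 for C1qb, chr4:136893075-136893134 for C1qc, chr11:69666363-69666420 for Cd68 and chr6:129472843-129472902 for Clec7a.
C1qb: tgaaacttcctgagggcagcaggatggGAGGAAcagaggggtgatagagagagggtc
C1qc: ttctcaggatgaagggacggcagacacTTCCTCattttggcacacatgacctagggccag
Cd68: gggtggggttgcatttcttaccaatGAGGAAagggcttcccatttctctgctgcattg
Clec7a: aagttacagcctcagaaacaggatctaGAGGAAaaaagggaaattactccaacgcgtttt
The core reads along the gene in C1qb, Cd68 and Clec7a and on the opposite strand in C1qc. A match describes letters in a window and not a bound site. Spi1 itself had 5.21, 5.04 and 5.69 in WT and 5.39, 6.14 and 5.24 in AMPK KO (difference 0.27 ± 0.25, adjusted p = 0.569), with groups that overlapped.

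Of 6 Fc receptors and signalling adaptors 3 rose, Fcgr4, Fcer1g and Tyrobp. Fcer1g encodes the common γ chain through which activating Fc receptors signal, and it had 5.11, 5.25 and 5.03 in WT and 6.07, 6.93 and 5.74 in AMPK KO. Tyrobp, the gene of the adaptor DAP12, had 5.21, 4.93 and 5.75 in WT and 6.18, 6.71 and 6.07 in AMPK KO. The AMPK KO libraries of both lay above those of WT, by 1.12 ± 0.25 for Fcer1g and 1.02 ± 0.23 for Tyrobp (adjusted p = 0.0198 and 0.0198). Fcgr4, an activating receptor for IgG on macrophages and non-classical monocytes, had 2.16, 3.37 and 2.63 in WT and 4.26, 5.14 and 3.76 in AMPK KO. It rose by 1.67 ± 0.39 (adjusted p = 0.0253), with groups apart. None of the 3 calls was kept in every fit without a single library. Fcer1g and Fcgr4 lost theirs without WT replicate 1, WT replicate 3 or AMPK KO replicate 1 (adjusted p = 0.0627 to 0.11 and 0.0909 to 0.141). Tyrobp lost its call without WT replicate 1 or AMPK KO replicate 1 (0.114 and 0.0687). The differences in those fits were 1.07 to 1.20 for Fcer1g, 1.39 to 1.73 for Fcgr4 and 0.98 to 1.09 for Tyrobp. Over all tested genes those fits called 71 to 73 higher, where the fit to all 6 libraries called 287. The 3 calls were also lost when no minimum level was set (adjusted p = 0.0791, 0.0944 and 0.0734 for Fcer1g, Fcgr4 and Tyrobp), and that of Fcgr4 with voom (0.0603).

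The other Fc receptors had no call. Fcgr1, the high-affinity receptor for IgG and a defining macrophage gene, had 0, 0.93 and 0.93 in WT and 2.58, 2.91 and 0.59 in AMPK KO, or 0 to 9 reads per WT library and 6 to 70 per AMPK KO library. AMPK KO replicate 3 lay inside the WT range, and the difference of 1.41 ± 0.58 (adjusted p = 0.178) became 2.13 (adjusted p = 0.0264) without it and 0.97 (adjusted p = 0.362) without AMPK KO replicate 2. With voom it was 2.79 (adjusted p = 0.327). Fcgr2b, the inhibitory receptor, had 2.36, 2.91 and 2.06 in WT and 3.62, 3.08 and 4.30 in AMPK KO. Its groups did not overlap, and the difference of 1.23 ± 0.39 (adjusted p = 0.0764) ran from 0.91 (adjusted p = 0.275) without AMPK KO replicate 3 to 1.52 (adjusted p = 0.0194) without AMPK KO replicate 2, the one case past the threshold. Fcgr3, an activating low-affinity receptor that NK cells also carry, differed by 0.74 ± 0.26 (adjusted p = 0.109). Fcgr2b, Fcgr4, Fcgr3 and Fcer1g lie close together on chromosome 1, and the Fcgr genes are similar in sequence, so how reads were divided among them is uncertain.

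Of 7 tested monocyte and pattern recognition genes 4 rose, namely the receptors Clec4n, Cd14 and Tlr2 and the lysozyme Lyz1. Clec4n, the gene of dectin-2, which binds fungal mannans, had 4.01, 4.78 and 4.23 in WT and 6.13, 6.44 and 5.91 in AMPK KO, and Cd14, the co-receptor for lipopolysaccharide, had 2.91, 3.64 and 2.61 in WT and 4.79, 4.75 and 5.24 in AMPK KO. The lowest AMPK KO library stood more than 1 log2 unit above the highest WT library in both genes. Clec4n rose by 1.82 ± 0.23 and Cd14 by 1.87 ± 0.31 (adjusted p = 0.000476 and 0.0031). Tlr2, the receptor for bacterial lipoproteins, had 1.51, 2.17 and 2.10 in WT and 3.64, 3.24 and 3.03 in AMPK KO, on 17 to 35 reads per WT library and 85 to 136 per AMPK KO library. It rose by 1.38 ± 0.37 (adjusted p = 0.0417). Its call was lost without any single library other than WT replicate 2 or AMPK KO replicate 2 (adjusted p = 0.0599 to 0.211), with quantile normalization (0.0533), with scaling to reads outside Rn45s (0.0509), with no minimum level (0.111) and with voom (0.0747).

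Lyz1 and Lyz2 encode lysozymes that split bacterial cell walls, Lyz2 being the form of monocytes, macrophages and granulocytes. Lyz1 had 2.53, 2.26 and 1.55 in WT and 3.94, 4.16 and 3.51 in AMPK KO, on 17 to 44 reads per WT library and 124 to 181 per AMPK KO library, and rose by 1.76 ± 0.37 (adjusted p = 0.013). Without WT replicate 3 or AMPK KO replicate 1 its adjusted p was 0.0719 and 0.0786, and with no minimum level 0.0584. Lyz2 had 2.12, 4.03 and 2.78 in WT and 4.30, 3.31 and 4.41 in AMPK KO. WT replicate 2 lay above AMPK KO replicate 2, so the groups overlapped, and the difference of 1.03 ± 0.45 (adjusted p = 0.198) became 1.55 (adjusted p = 0.0393) without WT replicate 2 and 0.60 (adjusted p = 0.559) without WT replicate 1. The genes are near-identical neighbours (chr10:117277541-117282272 for Lyz2 and chr10:117287795-117292868 for Lyz1), and reads shared between them could have been assigned to either.

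Itgam, the CD11b chain of the complement receptor CR3, had 2.89, 2.00 and 2.83 in WT and 3.0, 2.68 and 2.90 in AMPK KO. Its groups overlapped and the difference of 0.29 ± 0.37 had an adjusted p of 0.702, with a 95% interval from -0.50 to 1.08. Without WT replicate 1 it was 0.45 and without WT replicate 2 it was 0.00 (adjusted p = 0.644 and 0.998). Gm49368 overlaps it on the same strand, so its reads could be divided. Clec7a, the gene of the β-glucan receptor dectin-1, had 5.06, 5.72 and 5.46 in WT and 5.89, 5.83 and 5.61 in AMPK KO, with overlapping groups and a difference of 0.37 ± 0.20 (95% interval from -0.07 to 0.80, adjusted p = 0.323), which was 0.19 (adjusted p = 0.71) without WT replicate 1. Tlr4, the lipopolysaccharide receptor that signals with CD14, had 0 to 6 reads per WT library and 15 to 27 per AMPK KO library. It was not tested, and its groups did not overlap.

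Of 8 general myeloid genes 5 rose, Lilrb4a, Sirpa, Aif1, Cd68 and Csf1r. Lilrb4a, an inhibitory immunoglobulin-like receptor, had 4.36, 4.47 and 5.04 in WT and 6.12, 6.49 and 6.29 in AMPK KO. Sirpa, which receives the signal of CD47 that restrains phagocytosis, had 3.80, 4.15 and 4.22 in WT and 5.57, 5.07 and 5.64 in AMPK KO. AMPK KO lay above WT in every library, by 1.68 ± 0.22 for Lilrb4a and 1.37 ± 0.24 for Sirpa (adjusted p = 0.000476 and 0.00454). Lilrb4a overlaps Gm49339 on the same strand. Cd68, a lysosomal membrane protein of macrophages, had 4.81, 4.48 and 4.60 in WT and 5.61, 5.88 and 5.69 in AMPK KO. Aif1, the actin-binding protein IBA1, had 5.05, 4.37 and 4.30 in WT and 5.59, 6.26 and 5.50 in AMPK KO. Neither gene's groups overlapped, with differences of 1.10 ± 0.20 for Cd68 and 1.21 ± 0.26 for Aif1 (adjusted p = 0.00585 and 0.0143). The call of Aif1 was lost without WT replicate 3 (adjusted p = 0.0979), without AMPK KO replicate 1 (0.0513) and with no minimum level (0.0614).

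Csf1r, the receptor for CSF1 and IL-34 that keeps macrophages alive, had 7.65, 7.21 and 7.49 in WT and 8.32, 9.01 and 7.94 in AMPK KO, on 1471 to 1844 reads per WT library and 2911 to 5522 per AMPK KO library. The groups were apart and the difference was 0.97 ± 0.22 (adjusted p = 0.0197). Its call held without AMPK KO replicate 2 or 3 but not without any of the other libraries (adjusted p = 0.0507 to 0.0987), nor with no minimum level (0.0879). Hmgxb3 overlaps it on the other strand, and whether reads were counted by strand is not given in the sources used here. Cybb, the NADPH oxidase subunit gp91phox, had 6.40, 6.51 and 6.13 in WT and 6.71, 7.21 and 6.71 in AMPK KO. Its groups did not overlap, and the difference was 0.53 ± 0.18 (adjusted p = 0.0988). Itgax, the CD11c chain shared with dendritic cells, and Mpeg1, a pore-forming protein of phagosomes, differed by 0.61 ± 0.31 and 0.83 ± 0.32 with groups that overlapped (adjusted p = 0.276 and 0.149). Without AMPK KO replicate 2 Itgax differed by 0.26 (adjusted p = 0.62) and Mpeg1 passed the threshold (1.09, adjusted p = 0.0303), whereas without WT replicate 1 Mpeg1 differed by 0.49 (adjusted p = 0.48).

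Of 4 genes tied to lipid handling and the Trem2 programme of lipid-laden macrophages, Apoe alone was called. Apoe, the apolipoprotein that carries cholesterol out of macrophages, had 7.73, 7.48 and 7.57 in WT and 8.24, 9.06 and 7.92 in AMPK KO, and rose by 0.82 ± 0.22 (adjusted p = 0.0442) with groups apart. Without AMPK KO replicate 2 it kept its call at a difference of 0.49 (adjusted p = 0.029). The call was lost without any single library other than AMPK KO replicate 2 or 3 (adjusted p = 0.0863 to 0.172), with no minimum level (0.147), with a robust estimate of the spread (0.0772) and with voom (0.0617). Gpnmb, a glycoprotein of lipid-laden macrophages, had 1.56, 2.20 and 1.65 in WT and 1.60, 2.30 and 1.33 in AMPK KO, a difference of -0.07 ± 0.43 with a 95% interval from -0.98 to 0.85. Trem2, the lipid-sensing receptor that signals through Tyrobp, had 0 to 3 reads per WT library and 0 to 10 per AMPK KO library. Ms4a7 had 0 to 6 reads per WT library and 9 to 43 per AMPK KO library, without overlap, and neither gene was tested.

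Summed over all 43 members, the level was 1119 to 1216 scaled RPM in WT and 1947 to 3318 in AMPK KO, a ratio of means of 2.17. The ratio of means was 2.13 for the red pulp members, 2.32 for the monocyte members and 2.16 for the general members, and in each subset every AMPK KO sum lay above every WT sum. Monocyte members came to 37.3% to 65.5% of the red pulp sum in WT and 52.3% to 60.7% in AMPK KO, which overlapped. General members came to 318% to 380.5% of the red pulp sum in WT and 308% to 385% in AMPK KO, which overlapped too. Complement members came to 52.7% to 64.5% of the red pulp sum in WT and 66.2% to 102% in AMPK KO, without overlap. The complement ratio was chosen after its values were seen and was not tested.

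**Figure D3:**
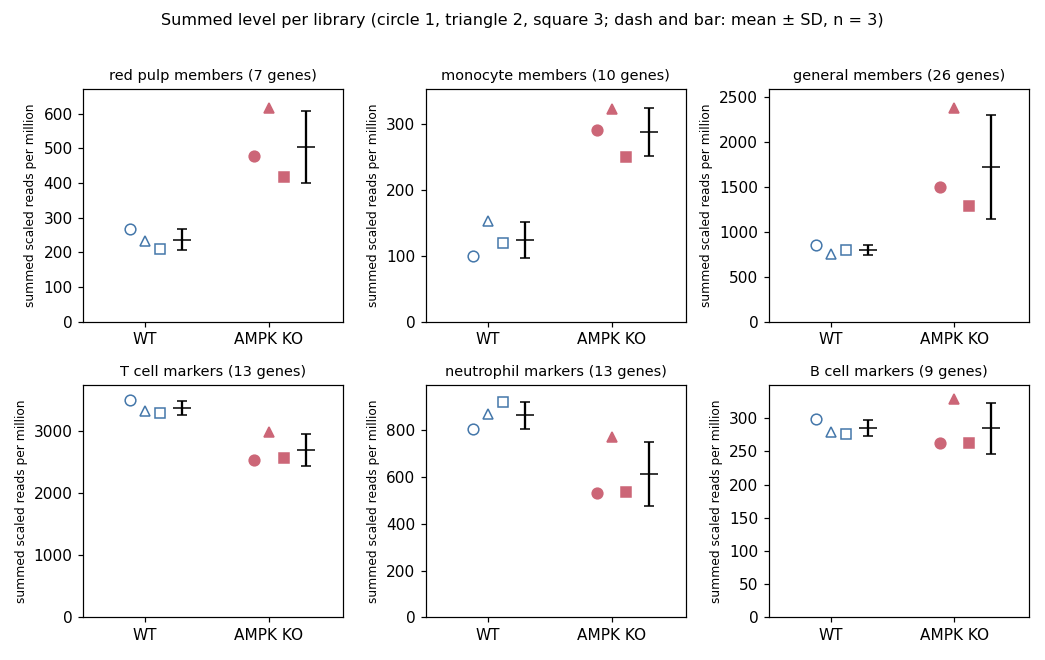
Summed level in each library, in scaled RPM, for the red pulp, monocyte and general members and for markers of T cells, neutrophils and B cells. Each point is 1 library. The sums of the 3 member subsets are higher in every AMPK KO library than in any WT library, the T cell sums (2534 to 2984 against 3285 to 3505) and neutrophil sums (530 to 770 against 805 to 920) are lower, and the B cell sums overlap.

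The members did not all follow the same order across the 3 AMPK KO libraries. AMPK KO replicate 2 was the highest of its group for 25 of the 37 tested members, where it was the highest for 39.2% of all tested genes, and the lowest for 7, where it was the lowest for 40.2%. Markers of other cells showed this too, since it was the highest for 6 of 8 tested B cell genes, 5 of 7 erythroid, 8 of 13 T cell, 7 of 12 neutrophil, 5 of 8 dendritic cell and 3 of 3 platelet genes, though for 2 of 6 plasma cell genes. It also had the highest AMPK KO sum of T cell, B cell, neutrophil and erythroid markers. The tested members for which it lay furthest above the mean of the other two AMPK KO libraries were C1qa (by 1.37 on the log2 scale), Fcgr1 (1.33), C3 (1.15), Fcgr4 (1.12) and C1qb (1.07). For Mrc1 it lay below them by 1.21, for Lyz2 by 1.04, for Fcgr2b by 0.88 and for Mpeg1 by 0.78. Mrc1, Lyz2, Fcgr2b, Mpeg1 and Cd14 were also the 5 members for which WT replicate 2 was the highest WT library while AMPK KO replicate 2 was the lowest of its group, an order that 19.9% of all tested genes showed. The opposite order, with AMPK KO replicate 2 highest and WT replicate 2 lowest, was found in 8 of the tested members and in 19.2% of tested genes. These members were picked for their values, and no test was made. Without AMPK KO replicate 2, limma called 21 members higher and 0 lower, in a fit that called 662 of all 11263 tested genes higher, where the fit to all 6 libraries called 19 members and 287 of 11279 genes.

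**Figure D4:**
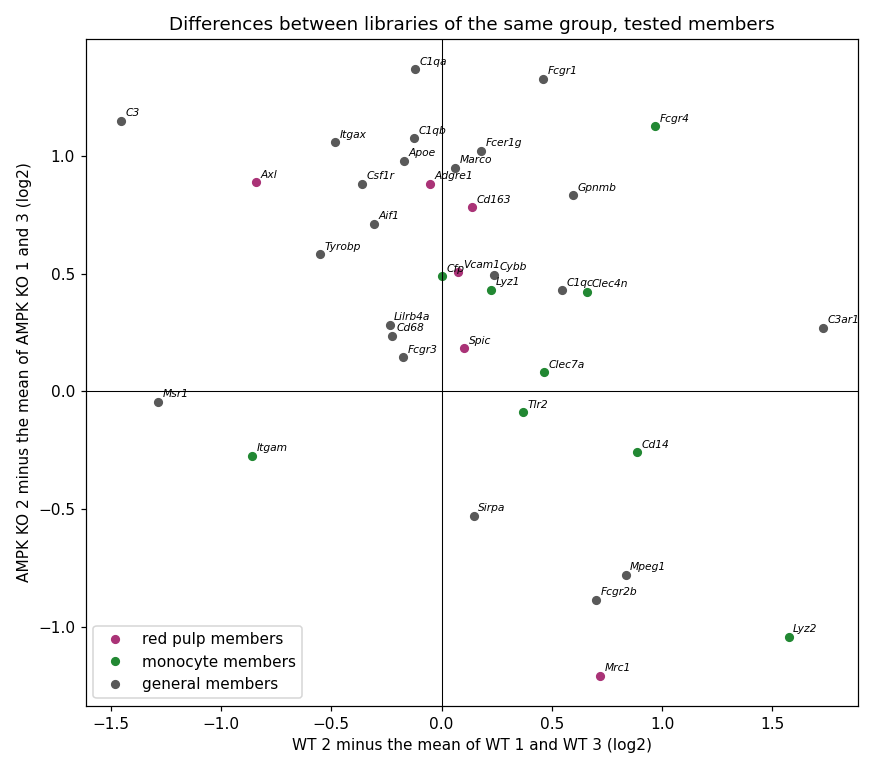
Position of replicate 2 within each group for the 37 tested members, as its log2 level minus the mean of the other two libraries, with WT on the x axis and AMPK KO on the y axis. Each point is 1 gene. Mrc1, Lyz2, Fcgr2b and Mpeg1 lie at the lower right, with values of -1.21 to -0.78 on the y axis, and C1qa lies at the top at 1.37.

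Further genes of the same cells were read from lists that hold no member. Of 9 other red pulp genes, all tested, 6 were higher and 0 lower, with a median difference of 1.05. They included Slc40a1, the iron exporter ferroportin, at 4.57, 4.63 and 4.18 in WT and 5.94, 5.90 and 5.53 in AMPK KO (1.33 ± 0.21, adjusted p = 0.00262), the metal transporter Slc11a1 (1.73 ± 0.40, 0.0228), Cd5l, a secreted scavenger protein (1.16 ± 0.24, 0.0137), transferrin, Trf (1.16 ± 0.22, 0.0079), Hmox1, which breaks down haem (1.05 ± 0.27, 0.0352), and the tetraspanin Cd81 (0.82 ± 0.18, 0.0146). Slc40a1 kept its call without any single library, and the other 5 lost theirs without WT replicate 1 (adjusted p = 0.07 to 0.129). Of 12 other monocyte genes, all tested, 3 were higher and 0 lower, with a median of 0.35, and at an unadjusted p under 0.05 5 were higher and 2 lower (Chil3 and Ifitm6). Ly6c2, the surface antigen of inflammatory monocytes, had 6.15, 6.24 and 6.35 in WT and 7.07, 7.44 and 6.98 in AMPK KO and rose by 0.92 ± 0.16 (adjusted p = 0.0056), whereas Ccr2, the chemokine receptor of the same cells, had 4.75, 4.43 and 4.27 in WT and 4.64, 4.36 and 4.78 in AMPK KO (0.11 ± 0.24, adjusted p = 0.834). Cd300e and Klf4 were the other two, at 1.93 ± 0.43 and 0.76 ± 0.18 (adjusted p = 0.0174 and 0.0253), and Chil3 lay below WT in every AMPK KO library without a call (-1.05 ± 0.33, adjusted p = 0.0806). Ifitm6 had a difference of -1.16 ± 0.52 (adjusted p = 0.214), with groups that overlapped. The calls of Cd300e and Klf4 were lost without WT replicate 3 (adjusted p = 0.0854 and 0.144) and that of Ly6c2, which T cells also make, without WT replicate 1 (0.0585).

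Among 10 myeloid transcription factors, 8 were tested and 2 were higher, the liver X receptor Nr1h3 (1.37 ± 0.36, adjusted p = 0.037) and Klf4. Of 11 ligands, growth factor receptors and complement partners of the members, 7 were tested and 1 was higher, Csf2ra, the GM-CSF receptor α chain, at 5.62, 5.87 and 5.08 in WT and 7.06, 6.58 and 7.06 in AMPK KO (1.38 ± 0.21, adjusted p = 0.00188). Cd47, the ligand of SIRPα, had 6.73, 6.69 and 6.90 in WT and 6.84, 7.08 and 6.90 in AMPK KO (0.17 ± 0.15, adjusted p = 0.562), and Csf1, the ligand of CSF1R, differed by 0.32 ± 0.44 (adjusted p = 0.729). Syk, the kinase that acts below both the Fc receptors and Tyrobp, differed by 0.18 ± 0.23 (adjusted p = 0.702). No gene of the lists of transcription factors and of ligands was lower in limma at an adjusted or an unadjusted p under 0.05, or in voom (0 by each). The calls of Nr1h3 and Klf4 were lost without WT replicate 3 (adjusted p = 0.142 and 0.144), and that of Csf2ra was kept without any single library.

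Markers of other cells moved with the genotype in both directions. T cell markers summed to 3285 to 3505 scaled RPM in WT and 2534 to 2984 in AMPK KO, and 4 of 13 tested were lower, namely Tcf7 (-1.66 ± 0.23), Cd3g (-0.93 ± 0.17), Cd3e (-0.66 ± 0.15) and Cd28 (-0.56 ± 0.16). The sum of all members came to 34.1% to 34.7% of the T cell sum in WT and to 75.9% to 111% in AMPK KO. Of 12 tested neutrophil genes 2 were lower, Ltf (-1.54 ± 0.38) and Ngp (-1.53 ± 0.24), and 0 were higher at an adjusted or an unadjusted p under 0.05, or in voom. S100a9, the most abundant of them, had 8.35, 8.46 and 8.60 in WT and 8.01, 8.50 and 7.90 in AMPK KO. The members summed to 122% to 151% of the neutrophil genes in WT and 362% to 431% in AMPK KO. Tcf7 and Ngp kept their calls without any single library, whereas Cd3g lost its call without WT replicate 1 (adjusted p = 0.0584), and Cd3e, Cd28 and Ltf without WT replicate 1 among others (0.122, 0.244 and 0.0536).

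In limma 0 of 8 tested dendritic cell genes, 0 of 8 B cell genes, 0 of 6 NK cell genes, 0 of 2 CD8 T cell genes, 0 of 7 erythroid genes and 0 of 2 stromal and endothelial genes were called, and voom called 0 as well. At an unadjusted p under 0.05, 2 dendritic cell, 2 NK cell and 2 CD8 genes were higher, and 1 B cell and 1 endothelial gene (Pecam1, -0.60 ± 0.17) were lower. By the same measure 4 of 6 plasma cell and 2 of 3 platelet genes were higher, and 4 of 12 neutrophil and 6 of 13 T cell genes were lower. The median differences were 0.89 for plasma cell genes, 1.18 for platelet genes, -0.52 for neutrophil genes, -0.32 for T cell genes, 0.52 for dendritic cell genes, -0.07 for B cell genes, 0.55 for NK cell genes, 0.36 for CD8 genes and -0.05 for erythroid genes. Plasma cell genes had 1 call of 6 tested, Jchain, at 5.83, 6.01 and 5.87 in WT and 8.54, 8.62 and 8.36 in AMPK KO, and their sum was 108 to 131 in WT and 438 to 484 in AMPK KO. Jchain kept its call without any single library. Of 3 tested platelet genes Pf4 was called (1.62 ± 0.39), but not without WT replicate 1 (adjusted p = 0.116). The fibroblast genes Col1a1, Col1a2 and Col3a1 were under the minimum for the test, with the highest single value at 1.33 for Col1a1 in AMPK KO replicate 3. What part the make-up of the samples has in the levels of the members was not tested.

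Of the 19 calls, 6 were kept in all 14 alternative analyses, those of Vcam1, C1qa, C1qc, Cd14, Clec4n and Lilrb4a. They include 1 red pulp, 2 monocyte and 3 general members. Among the 37 tested members, 35 kept the sign of their difference in every alternative run for them, with C3ar1 (-0.23 to 0.35) and Gpnmb (-0.34 to 0.14), which had no call in any, as the exceptions. The calls of Cd68 and Sirpa were kept without any single library.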

How the data were processed

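CD4 T cell libraries of 3 WT and 3 AMPK KO samples were made with a 3′ kit (Lexogen QuantSeq) out of 500 ng RNA each. The submitters' processing notes name Bowtie2, bedtools and mm10, while the scaling factors, the annotation and strand handling are not given in the sources used here. The authors deposited log2 values, 1 table per sample with 23282 genes by symbol. Values up to 100 reads lay within 0.1 of whole reads in 100% of cases, as log2 of scaled RPM plus 1, and reads were recovered on that basis.

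The deposited log2 values were compared with limma 3.58.1 in R 4.3.3 (lmFit and eBayes with a trend, genotype only, two-sided, Benjamini-Hochberg) over 11279 genes with a mean log2 of at least 1. A call is an adjusted p under 0.05. The fit was also run on simulated data as a check of the code, and no result here rests on that run. Single members also had an exact permutation test. Alternatives were quantile normalization, scaling to reads outside Rn45s, a pseudocount of 0.5, no minimum or one of 3, a replicate block, a robust spread, voom, and leaving out each library.

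The members, the lists and the alternatives were chosen with earlier results of these data known. Values by library were given for called members and for defining members (Csf1r, Adgre1, Cd14, Cd68, Spic, Vcam1, C1qa, C1qb, C1qc, Lyz2, Fcgr1, Itgam and Mertk), and up to 3 called genes and the most abundant gene were named from each other list. Further members and list genes were named after their values were seen. RefSeq promoters (GRCm38.p6) were searched on both strands with Python 3.11.15, pandas 2.3.3 and numpy 2.4.6, and figures were drawn with matplotlib 3.10.9. Of the list genes, Sirpb1c and Ly6g were not matched, and Ccl21a was left out because its symbol occurs on more than 1 line.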

Additional observations from a re-analysis of the deposited data

How the results depend on the processing

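No member was called lower under any of the 14 alternatives, and the median difference of the tested members was 0.97 to 1.15. The number called higher (19) was 10 with no minimum level, where 15930 genes were tested, and 9 to 21 when single libraries were left out (9 without AMPK KO replicate 1, 10 without WT replicate 1, 11 without WT replicate 3). With no minimum level 1 red pulp, 3 monocyte and 6 general members were called. Scaling to reads outside Rn45s and voom each called 1 red pulp member, and a robust spread called 4, against 2. Without single libraries the red pulp, monocyte and general members called numbered 1 to 2, 2 to 7 and 6 to 13, against 2, 6 and 11. The cause was not tested. Over all tested genes, 287 were higher and 350 lower, and without single libraries the counts ran from 71 and 56 (without WT replicate 1) to 662 and 581 (without AMPK KO replicate 2). Scaling outside Rn45s moved the median of all tested genes by -0.06, and the share of calls that were higher went from 45.1% to 32.2%.

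Samples with the same replicate number did not deviate together (correlations of -0.08, -0.32 and -0.16 over the tested genes). For samples with different numbers the correlations were -0.11 to 0.24. With 3 samples per group these values cannot decide whether samples were paired. With the replicate block, 7 members were called (1 red pulp, 2 monocyte and 4 general), and over all genes 50 were higher and 52 lower, from a fit with fewer degrees of freedom.

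Members with few reads, such as Mertk, Trem2, Siglec1 and Tlr4, are limited by depth, and reads of PCR products are not independent molecules.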
